A study of Homo sapiens with 24 samples.

Results

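The long intergenic non-coding RNA genes that carry a LINC number are described here in nuclei and cytoplasm of a human colon carcinoma line in which the splicing-associated protein ERH had been knocked out. Members were the genes with a symbol of LINC followed by 5 digits and a mean of at least 50 estimated counts over the 24 libraries. This gave 119 of 2286 LINC genes, among 62754 genes in the count table. The rule as first set took symbols from the intron tables. Those tables name 6 LINC genes, of which 1, LINC02210, reached the minimum. Symbols were therefore taken by gene ID from the reference annotation. LINC01023 and LINC00921 lay just inside the minimum with means of 51.8 and 50.3 counts. LINC02577 and LINC01772 lay just outside it with 48.4 and 47.9 counts.

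All cells were RKO-iCas9 cells, a derivative of the RKO line with doxycycline-inducible Cas9, and the study's methods describe such Cas9 lines as grown from single cells. They carried a guide against ERH (sgERH) or, as the control, against the AAVS1 safe-harbour locus (sgAAVS1), and both guides were combined with 5 days of doxycycline at 100 ng/mL. Cells then received the translation inhibitor cycloheximide (CHX, 25 µg/mL) or its solvent DMSO for 4 h and were separated into nuclei and cytoplasm with a mild detergent before poly(A)-enriched RNA-seq. The 8 groups were therefore sgERH and sgAAVS1, each with CHX and with DMSO, in nucleus and in cytoplasm, with 3 libraries per group that the labels call biological replicates. Nothing states how these replicates were separated, so p-values measure the spread between these libraries. The comparisons asked which RNAs depend on ERH in either compartment and whether translation-coupled decay contributes.

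LINC genes are transcribed by RNA polymerase II outside protein-coding genes, and their RNAs are usually capped, spliced and polyadenylated. Compared with mRNAs they tend to be spliced less efficiently, held in the nucleus and removed there by the RNA exosome with its NEXT and PAXT adaptors. Those that reach the cytoplasm can be scanned by ribosomes and then degraded by nonsense-mediated decay (NMD), a pathway that needs translation and is blocked by cycloheximide. Cycloheximide also superinduces immediate-early genes such as FOS and JUN, whose products form the transcription factor AP-1. Most LINC genes have no established function. Both LINC00460 and LINC00941 have been described as raised in several human carcinomas.

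ERH itself was checked first. In cytoplasm with DMSO it stood at 72.9, 86.9 and 59.4 CPM (counts scaled to the size of the library) in the sgERH libraries, against 137, 158 and 152 CPM in the sgAAVS1 libraries, a log2 fold change of −1.03 ± 0.11 (SE; edgeR adjusted p = 1.12e-06). The log2 fold change was −0.72 in cytoplasm with CHX and −0.48 in nuclei with DMSO (adjusted p = 6.15e-05 and 0.0267). In nuclei with CHX it was −0.12 (adjusted p = 0.59), and the sgERH values of 11.9, 16.8 and 11.8 CPM overlapped the sgAAVS1 values of 15.6, 14.2 and 14.1 CPM. The mRNA level of ERH therefore did not separate the nuclear CHX groups.

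The libraries held between 27849345 and 79450331 estimated counts, and a single count was worth 0.0135 to 0.0375 CPM. No pair of libraries held identical counts. Of 8 RNAs fixed as a nuclear check, 7 could be tested and 6 of these (MALAT1, NEAT1, KCNQ1OT1, PVT1, FTX and JPX) were higher in nuclei than in cytoplasm of sgAAVS1 cells, while OIP5-AS1 was lower. Of 9 fixed as cytoplasmic, 4 were lower and 3 higher in nuclei. Of 9 colon epithelial markers, 4 were expressed enough to be tested (EPCAM, KRT8, KRT18 and CDX2), while KRT20 was at 0 and CDH1 at most at 0.0518 CPM in any group mean. The fibroblast markers summed to at most 5.31 CPM in any library, and of the leukocyte markers CD3E was at 0 and PTPRC reached at most 0.132 CPM. The leukocyte sum of 59.5 to 393 CPM came almost wholly from CD68, which many cell types transcribe. Transcripts of the mitochondrial genome took 4.69% to 6.84% of counts in the sgERH cytoplasmic libraries and 3.08% to 4.12% in the sgAAVS1 cytoplasmic libraries. In nuclei they took 0.745% to 1.05% in sgERH and 0.395% to 0.598% in sgAAVS1 libraries.

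By annotation, 118 of the 119 members were lncRNA genes and LINC02210 was a transcribed pseudogene. The main transcript, the one with the most counts, had a median of 2 exons, and 29 members had a single-exon main transcript. Its length ran from 691 to 9815 bases with a median of 2436 bases. Many members share sequence with other genes. An exon of another gene on the opposite strand overlapped 51 members, an exon on the same strand overlapped 25, and 58 had neither. Of the 31-base words of the main transcript, 15 members shared at least 50% with other genes and 66 shared under 10%. The strand setting of the counting is not given in the sources used here, so reads of an overlapping partner cannot be told apart. Where this touches a named gene it is given beside it.

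In TPM, a relative abundance corrected for transcript length, LINC00342 averaged 142 over the 24 libraries, LINC01358 116 and LINC00460 93.0, and they led the set. The median member stood at 10.3 TPM in sgERH and 8.95 TPM in sgAAVS1 nuclei with CHX, and at 7.17 TPM in sgERH and 5.6 TPM in sgAAVS1 nuclei with DMSO. In cytoplasm it stood at 3.1 and 2.12 TPM in sgERH and sgAAVS1 cells with CHX, and at 2.52 and 1.03 TPM in sgERH and sgAAVS1 cells with DMSO. Together the members took 0.265% and 0.283% of all counts in sgERH and sgAAVS1 nuclei with CHX, against 0.194% and 0.18% in sgERH and sgAAVS1 nuclei with DMSO. In cytoplasm they took 0.101% and 0.0866% with CHX, and 0.0881% and 0.0664% with DMSO, again for sgERH and sgAAVS1. A single gene weighed heavily in the nucleus. LINC00342 made up 20.3% of the members' counts in sgERH and 26.8% in sgAAVS1 nuclei with DMSO, but 3.11% and 0.374% of them in sgERH and sgAAVS1 cytoplasm. By counts, the other 7 of the 8 most abundant members were LINC00460, LINC02693, LINC01128, LINC01358, LINC00174, LINC00265 and LINC00667. LINC00667 was called in none of the 13 comparisons of genes, with 53.8, 59.9 and 65 CPM in sgERH and 62.1, 61.4 and 64.6 CPM in sgAAVS1 nuclei with DMSO.

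**Figure D1:**
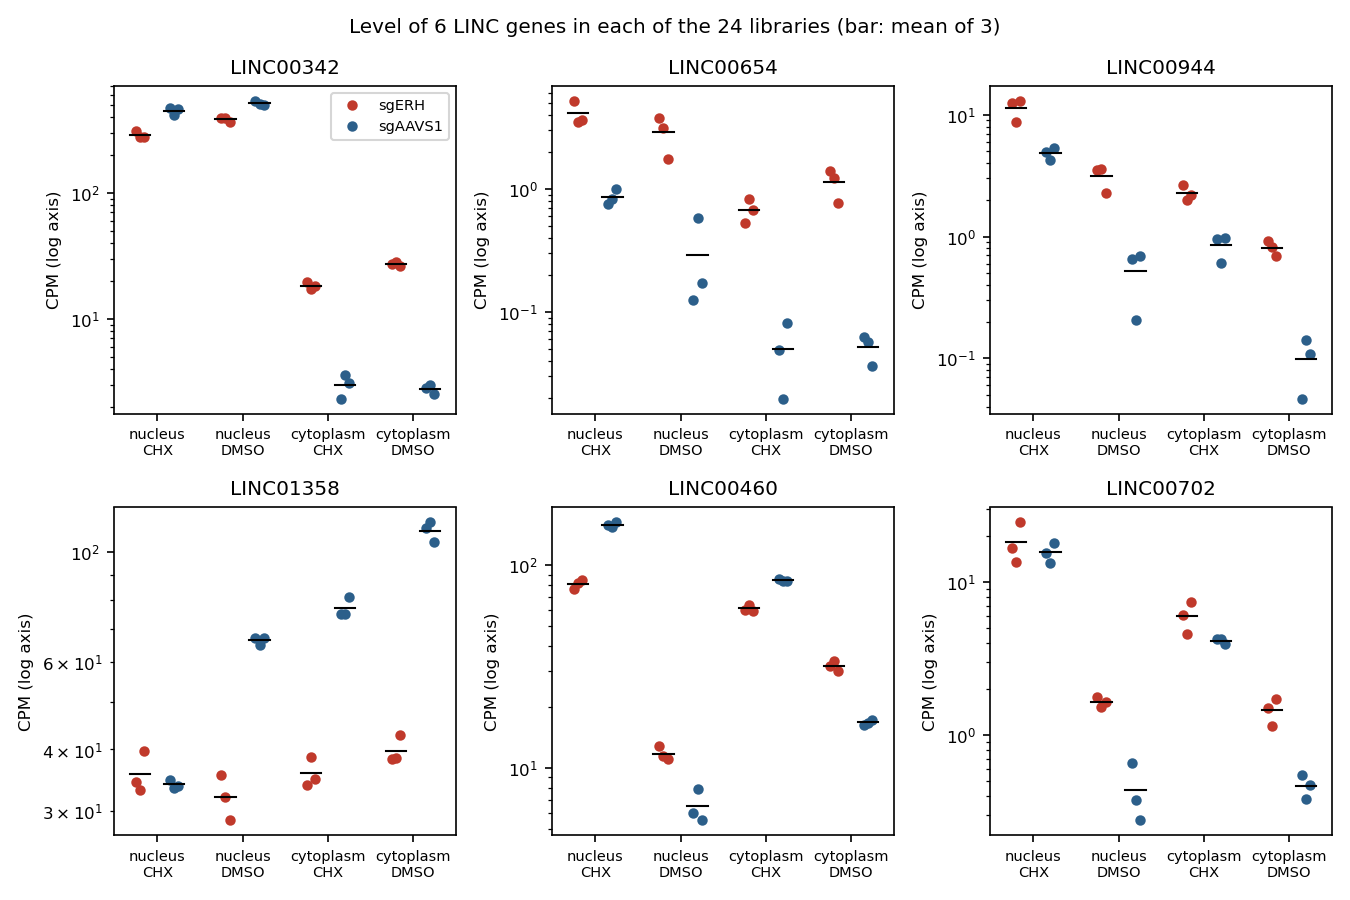
Level of 6 LINC genes in each of the 24 libraries, in CPM on a log axis, scaled within each fraction; points are single libraries, sgERH left of sgAAVS1 in each pair, and the bar is the mean of 3. LINC00342, LINC00654 and LINC00944 lie higher in sgERH than in sgAAVS1 cytoplasm, LINC01358 lies lower there, and LINC00460 and LINC00702 lie higher with CHX than with DMSO in all 4 pairings.

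Nuclear members were the largest class. A gene was called in a comparison when the edgeR quasi-likelihood test gave an adjusted p of at most 0.05 and the fold change was at least 1 on the log2 scale. In sgAAVS1 cells with DMSO, 60 of 118 tested members were higher in nuclei than in cytoplasm, where 31.9% of all tested genes were, and 18 were lower, where 26.5% of all were, or 78 of 118 against 58.4% of all genes in either direction. The median log2 ratio of nucleus over cytoplasm was 1.04 over the members and 0.05 over all genes. In sgERH cells 54 members were higher and 22 lower in nuclei (29.2% and 24.2% of all genes, 53.4% in either direction), with a median of 0.82. Both comparisons set each fraction to its own total, so the ratio is relative to the other genes and not a number of molecules. As a description, other lncRNA genes with at least 50 counts had a median of 1.33 and protein-coding genes of −0.31 in sgAAVS1 cells.

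LINC00342 (ENSG00000232931, chr2:95807052-95835003, minus strand) was the most nuclear member. On a scale common to all DMSO libraries it stood at 482, 455 and 448 CPM in sgAAVS1 nuclei, against 2.92, 3.16 and 2.62 CPM in sgAAVS1 cytoplasm, a log2 ratio of 7.31 ± 0.08 (SE; edgeR adjusted p = 1.7e-20). LINC01355 (chr1:23281307-23287488), whose single-exon main transcript measures 5444 bases, followed with 62.7, 53.2 and 53.6 CPM in nuclei, against 0.463, 0.72 and 0.453 CPM in cytoplasm. Both genes were picked by this ratio, and every nuclear library lay far above every cytoplasmic one. LINC00937, LINC00926 and LINC02804 completed the 5 most nuclear members with log2 ratios of 6.50, 5.86 and 5.76. At the cytoplasmic end LINC02606 averaged 0.13 ± 0.073 CPM in nuclei and 0.924 ± 0.255 CPM in cytoplasm (SD, n = 3 each), a log2 ratio of −2.81 ± 0.51. LINC01357, LINC01023, LINC01521 and LINC01537 followed with log2 ratios between −2.31 and −2.10. LINC01537 was the one of these with high counts, with 8.92, 7.88 and 8.63 CPM in nuclei, against 32.2, 37.2 and 39.8 CPM in cytoplasm. LINC01357 shares 79.6% of its words with LINC01356, which overlaps it on the opposite strand. The 60 nuclear members had a median of 3 exons and a GC content of 47.0%, and the 18 cytoplasmic members a median of 2 exons and a GC content of 50.7%. The other 41 members, called neither way, had a median of 2 exons and a GC content of 51.6%. These differences were not tested.

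**Figure D2:**
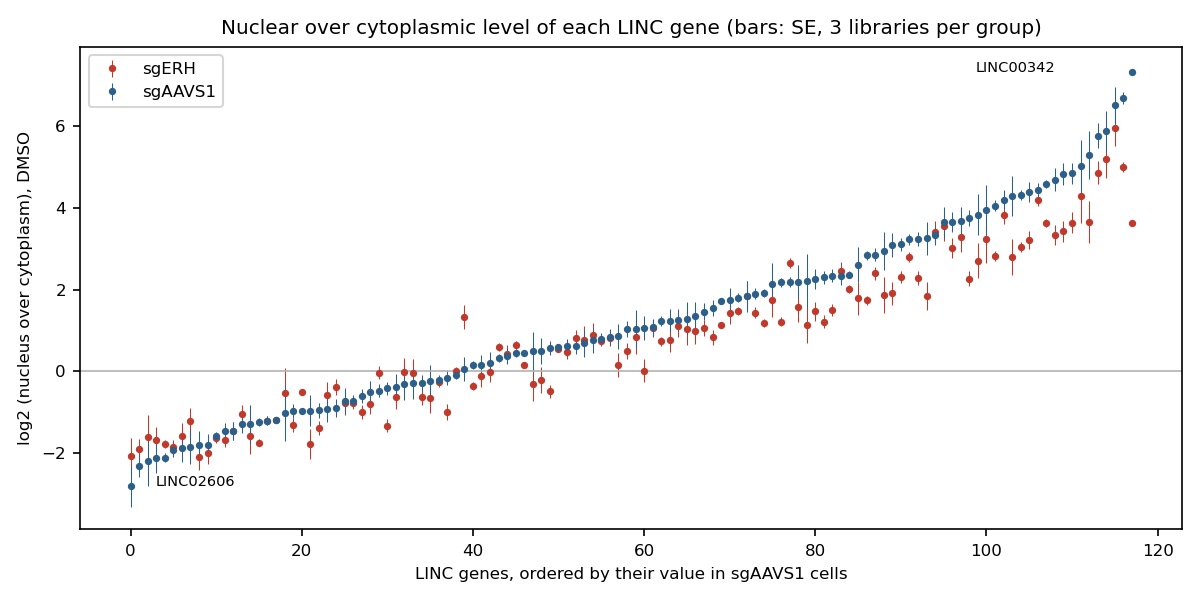
Log2 ratio of nuclear over cytoplasmic level of each LINC gene with DMSO, in sgERH and sgAAVS1 cells, ordered by the value in sgAAVS1 cells; bars are standard errors from 3 libraries per group. The most nuclear gene, LINC00342, which was picked by its sgAAVS1 value, lies at 7.31 in sgAAVS1 cells and at 3.63 in sgERH cells.

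With ERH targeted, a minority of LINC RNAs were called higher in the cytoplasm and most were not called. In cytoplasm with DMSO, 41 of 118 tested members rose and 1 fell in sgERH relative to sgAAVS1 cells, where 9.3% of all tested genes rose and 2.16% fell (11.5% in either direction). The median log2 fold change was 0.67 over the members and 0.04 over all genes. Among the 48 tested members without exon overlap and with under 10% shared words, 18 rose and 0 fell (33 of them had an adjusted p under 0.05 alone and 37 an unadjusted p under 0.05), with a median of 0.83. As a description, the shares that rose were 21.7% of 1303 other lncRNA genes and 4.19% of 11475 protein-coding genes with at least 50 counts. In bulk RNA, more RNA per cell and more cells with the RNA cannot be told apart, and without a spike-in every value is relative to the rest of the fraction.

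LINC00342 had the clearest change of the abundant members. Its cytoplasmic level with DMSO was 27.3, 28.1 and 26.5 CPM in sgERH libraries, against 2.85, 2.99 and 2.53 CPM in sgAAVS1 libraries, with a wide gap between the groups (log2 fold change 3.29 ± 0.12, SE; edgeR adjusted p = 1.24e-11). With CHX the same comparison gave 19.7, 17.2 and 18.3 CPM in sgERH, against 2.33, 3.59 and 3.09 CPM in sgAAVS1 cytoplasm (2.62 ± 0.12). In nuclei the order was the opposite, with 393, 396 and 368 CPM in sgERH and 538, 506 and 499 CPM in sgAAVS1 libraries with DMSO. The sgERH libraries lay below the sgAAVS1 libraries there too with CHX, at 311, 279 and 280 CPM against 474, 416 and 463 CPM. Both nuclear differences had an adjusted p under 0.05 and neither reached the fold limit (log2 fold changes −0.42 and −0.64). LINC00342 shares 46.9% of its words with other genes, 41.6% with APPAT, and reads may be split between these copies. APPAT moved in the same way, to a mean of 29.7 CPM in sgERH, against 3.93 CPM in sgAAVS1 cytoplasm with DMSO. The sum of both genes was 57 ± 1.11 CPM in sgERH and 6.72 ± 1.17 CPM in sgAAVS1 cytoplasm (SD, n = 3 each).

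The cytoplasmic level of LINC00342 amounted to 8.1% of its nuclear level in sgERH cells and to 0.629% in sgAAVS1 cells with DMSO. Of the nuclear check RNAs that were higher in nuclei, 5 had a higher share in sgERH cells and JPX had a lower one. MALAT1 stood at 6.89% in sgERH and 5.36% in sgAAVS1 cells, NEAT1 at 4.36% and 2.51%, KCNQ1OT1 at 6.81% and 2.39%, FTX at 5.91% and 4.04%, and PVT1 at 47.7% and 21.6%. JPX stood at 26.1% in sgERH and 29.6% in sgAAVS1 cells. These differences in share were not tested. The nuclear check RNAs summed to 792 to 819 CPM in sgERH, against 550 to 620 CPM in sgAAVS1 cytoplasm with DMSO. Of the 7 tested, KCNQ1OT1 (log2 fold change 1.74) and NEAT1 (1.06) rose, and the median was 0.55. The part of nuclear RNA in the cytoplasmic fraction, and of the higher mitochondrial share given above, in these results was not tested.

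The other leading rises were in scarce RNAs. LINC00654 (chr20:5482736-5526709) stood at 1.41, 1.23 and 0.77 CPM in sgERH cytoplasm with DMSO, against 0.0622, 0.0566 and 0.0364 CPM in sgAAVS1 cytoplasm, where it was at or near the level of 3 counts per library (log2 fold change 4.39 ± 0.48, SE; edgeR adjusted p = 1.05e-06). LINC00944 stood at 0.92, 0.819 and 0.695 CPM in sgERH, against 0.0467, 0.142 and 0.109 CPM in sgAAVS1 cytoplasm (3.00 ± 0.37). LINC00622, a single-exon gene without shared words, stood at 1.86, 2.16 and 1.43 CPM in sgERH, against 0.358, 0.425 and 0.254 CPM in sgAAVS1 cytoplasm (2.37 ± 0.27). In each of these genes the groups did not overlap, which follows largely from their choice as the largest called rises. LINC01134 rose by 2.34 ± 0.65 from low counts, and among its sgAAVS1 libraries the values ran from 0.0311 to 0.184 CPM. LINC00654 overlaps LINC01729 on the same strand, and LINC00944 overlaps LINC00943 on the opposite strand, which averaged at most 0.0527 CPM in any group.

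LINC00941 was counted unevenly and is uncertain. Its deposited estimate was 0 in 2 of 3 sgERH and in all 3 sgAAVS1 cytoplasmic libraries with DMSO, and 1.73 CPM in the remaining sgERH library. Of its words 92.2% lie in ENSG00000285517, which overlaps it on the same strand, so that its estimate depends on how reads were shared out. Both genes summed to 36.9 ± 0.936 CPM in sgERH and 52.3 ± 3.0 CPM in sgAAVS1 cytoplasm with DMSO (SD, n = 3 each). The test called LINC00941 higher in sgERH cytoplasm (log2 fold change 8.12 ± 2.48, no bound, adjusted p = 0.012), and without the sgERH library at 1.73 CPM the value was 0.0.

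LINC01358 (ENSG00000237352, chr1:58933643-59240555, plus strand) was the 1 member that fell in cytoplasm with DMSO. It stood at 38.3, 38.4 and 42.7 CPM in sgERH, against 112, 115 and 105 CPM in sgAAVS1 libraries (log2 fold change −1.48 ± 0.07, SE; edgeR adjusted p = 5.04e-11). It also fell in nuclei with DMSO, to 35.5, 32.1 and 28.8 CPM in sgERH, against 67.2, 65 and 67.3 CPM in sgAAVS1 libraries (−1.05 ± 0.09), a call that was lost at −0.98 without sgERH replicate 3. In cytoplasm with CHX it stood at 33.9, 38.7 and 34.9 CPM in sgERH, against 75.1, 75 and 81.3 CPM in sgAAVS1 libraries (−1.11 ± 0.07). In nuclei with CHX the groups overlapped, with 34.4, 33.1 and 39.7 CPM in sgERH and 34.7, 33.5 and 33.8 CPM in sgAAVS1 libraries. An exon of FGGY-DT overlaps it on the opposite strand.

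In nuclei the rise was narrower. With DMSO 13 of 118 tested members rose and 1 fell (4.77% and 1.73% of all genes, 6.5% in either direction), with a median log2 fold change of 0.26 against 0.03 over all genes. Of the 13 nuclear rises, 12 were also called in cytoplasm with DMSO, which was 92.3% of the nuclear and 29.3% of the 41 cytoplasmic calls, where over all genes the shared rises made up 51.1% and 28.2%. LINC00654 led again, with 3.78, 3.13 and 1.74 CPM in sgERH, against 0.124, 0.58 and 0.173 CPM in sgAAVS1 nuclei (log2 fold change 3.30 ± 0.47, SE; edgeR adjusted p = 3.07e-05). LINC00944 rose by 2.58 ± 0.33, LINC01144 by 2.15 ± 0.49, LINC00622 by 1.97 ± 0.29, LINC02228 by 1.92 ± 0.41 and LINC00702 by 1.89 ± 0.32. In all 6 genes the sgERH libraries lay above the sgAAVS1 libraries, which follows largely from their choice as the largest called rises. LINC01144 overlaps an exon of ZSWIM5 on the opposite strand.

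With translation blocked, fewer than 1 in 5 members rose in sgERH cytoplasm, and in nuclei calls went both ways. In cytoplasm with CHX 20 of 118 members rose and 2 fell in sgERH relative to sgAAVS1 cells (5.79% and 1.43% of all genes, 7.22% in either direction), with a median log2 fold change of 0.34 against 0.02. Of the 20 rises, 15 were also called with DMSO, which was 75% of the CHX and 36.6% of the 41 DMSO calls, where over all genes it was 58.1% and 36.2%. LINC00520 stood at 1.57, 1.18 and 1.53 CPM in sgERH, against 0.312, 0.138 and 0.0538 CPM in sgAAVS1 cytoplasm (3.10 ± 0.43, SE; edgeR adjusted p = 1.7e-05). LINC00664, which overlaps ZNF429 on the same strand, stood at 5.5, 5.95 and 6.42 CPM in sgERH, against 1.46, 1.99 and 1.76 CPM in sgAAVS1 cytoplasm (1.78 ± 0.17). LINC00654, LINC00622 and LINC00852 rose by 3.63, 1.99 and 1.87. LINC01812 fell, to 3.39, 3.53 and 3.79 CPM in sgERH, against 7.47, 7.08 and 7.48 CPM in sgAAVS1 cytoplasm (−1.04 ± 0.13).

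In nuclei with CHX 15 members rose and 7 fell (5.29% and 3.68% of all genes, 8.96% in either direction), with a median of 0.07 against 0.01. LINC00654 stood at 5.21, 3.53 and 3.65 CPM in sgERH, against 0.759, 0.825 and 0.995 CPM in sgAAVS1 nuclei (2.26 ± 0.42, SE; edgeR adjusted p = 0.000271). LINC01144, LINC01357, LINC00520, LINC01011 and LINC01311 rose by 1.80, 1.61, 1.54, 1.43 and 1.41. LINC01011 overlaps exons of NQO2 on the same strand. Among the falls, LINC01004 (chr7:104950315-105013068) stood at 36.4, 42.8 and 37.6 CPM in sgERH, against 94, 89.1 and 97.6 CPM in sgAAVS1 nuclei (−1.26 ± 0.08). LINC01572 stood at 6.11, 4.75 and 7.06 CPM in sgERH, against 16, 15.2 and 15.9 CPM in sgAAVS1 nuclei (−1.40 ± 0.15), and 81.5% of its words lie in ENSG00000260664, which overlaps it on the opposite strand. LINC01588, LINC01204, LINC01812 and LINC02516 fell by 1.41, 1.27, 1.17 and 1.03. The LINC02516 call was lost at −0.98 without sgERH replicate 3.

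**Figure D3:**
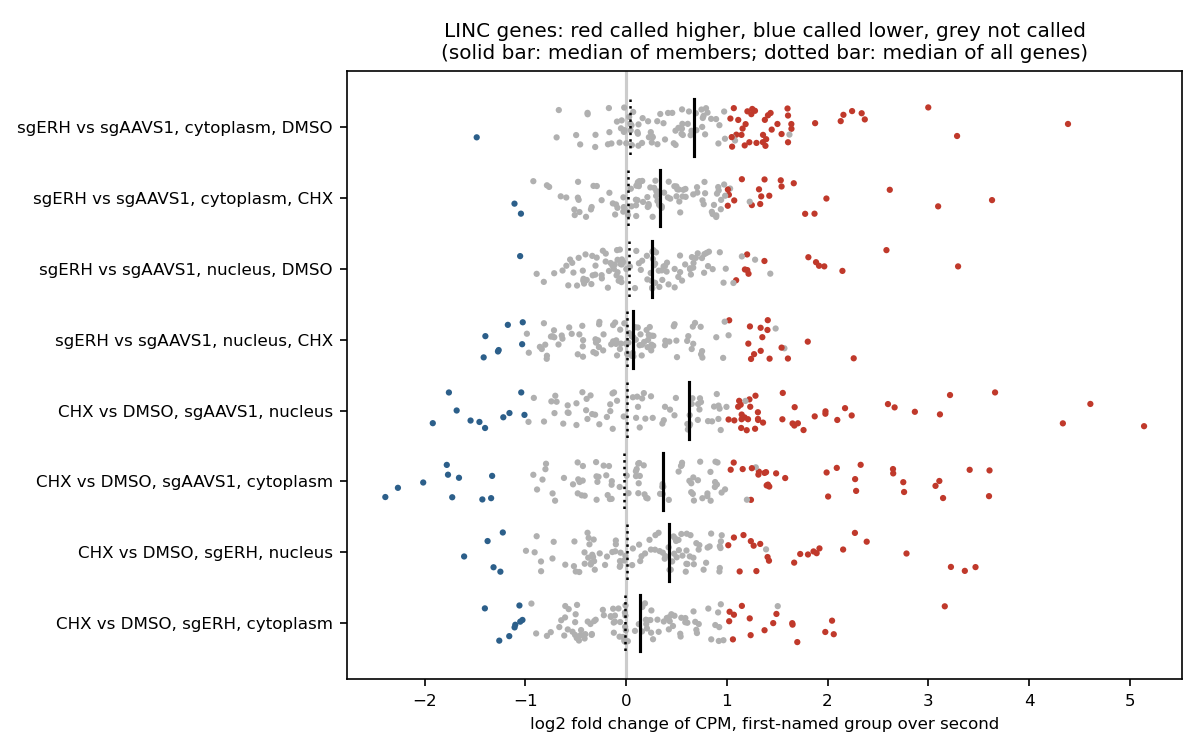
Log2 fold change of each LINC gene in 8 comparisons, first-named group over second; red points were called higher, blue lower and grey not called, the solid bar is the median of the LINC genes and the dotted bar that of all genes. The median is 0.67 for sgERH over sgAAVS1 in cytoplasm with DMSO and 0.07 in nuclei with CHX; LINC00941 is not drawn.

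Over the 4 sgERH comparisons, 51 of 119 members rose in at least 1 (42.9%, against 15.2% of all tested genes), 8 fell in at least 1 (6.72%, against 6.34%) and 0 did both (0.309% of all genes did). LINC00520, LINC00622, LINC00654, LINC00944 and LINC02228 rose in all 4, which was 4.27% of the 117 members tested in each, against 0.807% of all genes tested in each. The minimum for members is a mean over all 24 libraries. A gene scarce in sgAAVS1 cells, such as LINC00654, can pass it through its sgERH libraries. These shares are therefore not independent of the choice of members. The effect was also read by the place of the RNA in sgAAVS1 cells with DMSO. In cytoplasm with CHX, whose libraries were not used to place the RNAs, 17 of 59 nuclear members rose, against 1 of 18 cytoplasmic members and 2 of 41 members called neither way. Their median log2 fold changes were 0.57, 0.22 and 0.29. In nuclei with CHX 6 of 60 nuclear members rose and 5 fell, 2 of 18 cytoplasmic members rose and 0 fell, and 7 of 40 members called neither way rose and 2 fell, with medians of −0.10, 0.25 and 0.09. Over all tested genes, whatever their place, 5.79% rose in cytoplasm with CHX. Counts by place were not made for all genes, so these cannot be read as particular to LINC genes. Differences between these classes were not tested.

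Genes of the decay pathways were read from lists. Of 28 tested factors of nuclear decay (exosome, NEXT, PAXT, Integrator and poly(A) binding), 0 were called by edgeR or DESeq2 in sgERH relative to sgAAVS1 cytoplasm with DMSO, although 20 had an edgeR adjusted p under 0.05 and 21 an unadjusted p under 0.05, and the median log2 fold change was −0.40. Their summed level was 2210 to 2320 CPM in sgERH and 2910 to 3090 CPM in sgAAVS1 cytoplasm with DMSO. They were also uncalled by both tools in nuclei with DMSO and in cytoplasm with CHX, with 14 and 18 at an unadjusted p under 0.05. In nuclei with CHX EXOSC5, an exosome core subunit, rose and EXOSC9, another, fell. Of 10 NMD factors, 0 were called by either tool in any sgERH comparison, with 3 to 6 at an unadjusted p under 0.05 and medians between 0.02 and 0.10.

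The nuclear and cytoplasmic sgERH effects with DMSO were also compared directly. The effect differed for 15 of 118 members, being lower in nucleus than in cytoplasm for 14 (3.95% of all genes) and higher for 1 (1.78%), where 5.73% of all genes differed in either direction. The median difference was −0.37, against −0.01 over all genes. The labels number the nuclear and cytoplasmic libraries alike, and with each numbered pair as a block 15 members were called too. LINC00342 had a difference of −3.68 ± 0.09 (SE; edgeR adjusted p = 6.44e-14). LINC01355 followed with −1.68 ± 0.20. It stood at 1.31, 1.15 and 1.2 CPM in sgERH, against 0.463, 0.72 and 0.453 CPM in sgAAVS1 cytoplasm, and at 38.2, 38.5 and 40.2 CPM in sgERH, against 62.7, 53.2 and 53.6 CPM in sgAAVS1 nuclei. LINC02604, a single-exon gene, had a difference of −1.48 ± 0.27, with 3.83, 3.22 and 4.79 CPM in sgERH, against 1.07, 1.2 and 2.19 CPM in sgAAVS1 cytoplasm and overlapping nuclear values. LINC01311 differed the other way (1.27 ± 0.41, adjusted p = 0.0246), with 3.41, 3.05 and 4.78 CPM in sgERH, against 1.7, 1.29 and 1.89 CPM in sgAAVS1 nuclei. Its call was lost in 5 of 12 fits that left out 1 library.

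Cycloheximide changed many LINC RNAs in control cells. In sgAAVS1 cytoplasm 31 of 118 tested members rose and 10 fell with CHX relative to DMSO (13.6% and 6.31% of all genes, 19.9% in either direction), with a median log2 fold change of 0.37 against −0.02. In sgAAVS1 nuclei 41 rose and 10 fell (14.4% and 10.8%, 25.2% in either direction), with a median of 0.63 against 0.01. In sgERH cytoplasm 18 rose and 8 fell (7.15% and 1.88%, 9.03% in either direction), and in sgERH nuclei 23 rose and 5 fell (8.52% and 6.29%, 14.8% in either direction). The responses of both cell populations share no library. Of the cytoplasmic rises 16 were shared, which was 88.9% of the sgERH and 51.6% of the sgAAVS1 calls, where over all genes it was 85.8% and 45.2%. Of the nuclear rises 20 were shared, which was 87% of the sgERH and 48.8% of the sgAAVS1 calls, where over all genes it was 80.8% and 47.8%. The shares of shared rises were thus near those of all genes. With CHX 11 members rose in all 4 comparisons (9.4% of 117, against 2.9% of all genes). LINC01106 and LINC01123 fell in all 4 (1.71%, against 0.638%), and they are near copies, so both falls may hold the same reads. A gene scarce with DMSO, such as LINC00973, can pass the count minimum through its CHX libraries. The shares of members that rose with CHX are therefore not independent of the choice of members.

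LINC00702 (ENSG00000233117, chr10:4201141-4243912, minus strand) rose most in sgAAVS1 nuclei among the members. It stood at 15.6, 13.3 and 18.1 CPM with CHX, against 0.653, 0.375 and 0.277 CPM with DMSO (log2 fold change 5.14 ± 0.29, SE; edgeR adjusted p = 6.35e-11). In sgERH nuclei it stood at 16.6, 13.5 and 24.6 CPM with CHX, against 1.76, 1.52 and 1.65 CPM with DMSO (3.47 ± 0.24). The CHX groups of both guides thus overlapped, while the DMSO values were higher in sgERH. Its nearest coding gene, KLF6, which encodes a stress-responsive zinc finger factor and lies 415860 bases away, rose as well, by 2.01 in sgAAVS1 nuclei and 3.56 in sgAAVS1 cytoplasm. Of the nearest coding genes of called members, 10 of 36 tested were called in sgAAVS1 nuclei, 6 of them in the direction of the LINC gene, and 6 of 33 in sgAAVS1 cytoplasm, 5 of them in that direction. Over all tested genes 25.2% were called in sgAAVS1 nuclei and 19.9% in sgAAVS1 cytoplasm. The neighbours were thus called about as often as all genes.

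LINC00460 (ENSG00000233532, chr13:106374477-106384315, plus strand) was far more abundant with CHX than LINC00702. In sgAAVS1 nuclei it stood at 158, 154 and 163 CPM with CHX, against 6.03, 7.91 and 5.54 CPM with DMSO (4.61 ± 0.12, SE; edgeR adjusted p = 6.27e-15). In sgERH nuclei it stood at 76.6, 82.1 and 84.9 CPM with CHX, against 12.8, 11.5 and 11.1 CPM with DMSO (2.78 ± 0.10). Here the sgERH libraries lay below the sgAAVS1 libraries with CHX and above them with DMSO. In cytoplasm the same held, with 60.5, 63.6 and 59.8 CPM in sgERH and 85.7, 84 and 83.5 CPM in sgAAVS1 libraries with CHX, and 32, 33.7 and 30 CPM in sgERH and 16.4, 16.7 and 17.3 CPM in sgAAVS1 libraries with DMSO.

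LINC00973, a scarce RNA, stood at 2.9, 2.81 and 3.13 CPM with CHX, against 0.249, 0.0341 and 0.138 CPM with DMSO in sgAAVS1 nuclei (4.34 ± 0.74, SE; edgeR adjusted p = 5.89e-05). In sgERH nuclei with CHX its values were spread out, at 1.55, 0.329 and 2.62 CPM. LINC01002 stood at 85.7, 83.3 and 89.7 CPM with CHX, against 4.76, 7.09 and 8.65 CPM with DMSO in sgAAVS1 nuclei (3.66 ± 0.27), and at 64.9, 37.9 and 89 CPM with CHX in sgERH nuclei. For both genes replicate 2 was the lowest of the sgERH nuclear CHX libraries, and without it the counts of called members in the 2 comparisons that use it were 25 for sgERH over sgAAVS1 with CHX and 30 for CHX over DMSO in sgERH nuclei, against 22 and 28 with it. Of the words of LINC01002, 95.8% occur in other genes, so that its value may hold reads of copies. LINC00944 rose by 3.22 ± 0.33 in sgAAVS1 nuclei. In sgAAVS1 cytoplasm LINC01348, LINC02887, LINC00973 and LINC00702 rose by 3.61, 3.60, 3.41 and 3.15, and 87.5% of the words of LINC02887 occur in other genes. In sgERH cytoplasm LINC01348 led with 3.16 ± 0.46. LINC00941 was estimated at 7.21, 8.28 and 5 CPM with CHX in sgAAVS1 cytoplasm and at 0 with DMSO. No bound on the fold change is given, since the 0 depends on how reads were shared out with ENSG00000285517. With ENSG00000285517 added, LINC00941 stood at 117 ± 2.5 CPM with CHX and 52.3 ± 3.0 CPM with DMSO (SD, n = 3 each).

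LINC00641, LINC00852, LINC00294, LINC01106 and LINC00997 fell most with CHX in sgAAVS1 cytoplasm. LINC00641 stood at 0.722, 0.631 and 0.619 CPM with CHX, against 3.3, 3.37 and 3.69 CPM with DMSO (−2.39 ± 0.24, SE; edgeR adjusted p = 1.94e-07). LINC00294 stood at 3.92, 4.16 and 4 CPM with CHX, against 14.9, 16.7 and 17.1 CPM with DMSO (−2.01 ± 0.09), and it overlaps CSTF3 on the opposite strand. Both also fell in sgERH cytoplasm, by 1.40 and 1.26. LINC00852, which overlaps an exon of GHRL on the opposite strand, fell by 2.26, and LINC00997, which overlaps the pseudogene DPY19L1P1 on the opposite strand, by 1.77. In sgAAVS1 nuclei LINC01123, LINC01315, LINC01833, LINC01106 and LINC01357 fell by 1.92, 1.76, 1.68, 1.54 and 1.45, the last with overlapping groups and at −1.07 without sgAAVS1 DMSO replicate 3, where the call was lost. LINC01123 and LINC01106 are near copies on chromosome 2, and 96.1% of the words of LINC01106 lie in LINC01123. Summed, they stood at 10.5 ± 1.2 CPM with CHX and 35.7 ± 1.45 CPM with DMSO in sgAAVS1 nuclei, and at 7.69 ± 0.273 CPM with CHX and 24.9 ± 1.65 CPM with DMSO in sgAAVS1 cytoplasm (SD, n = 3 each).

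**Figure D4:**
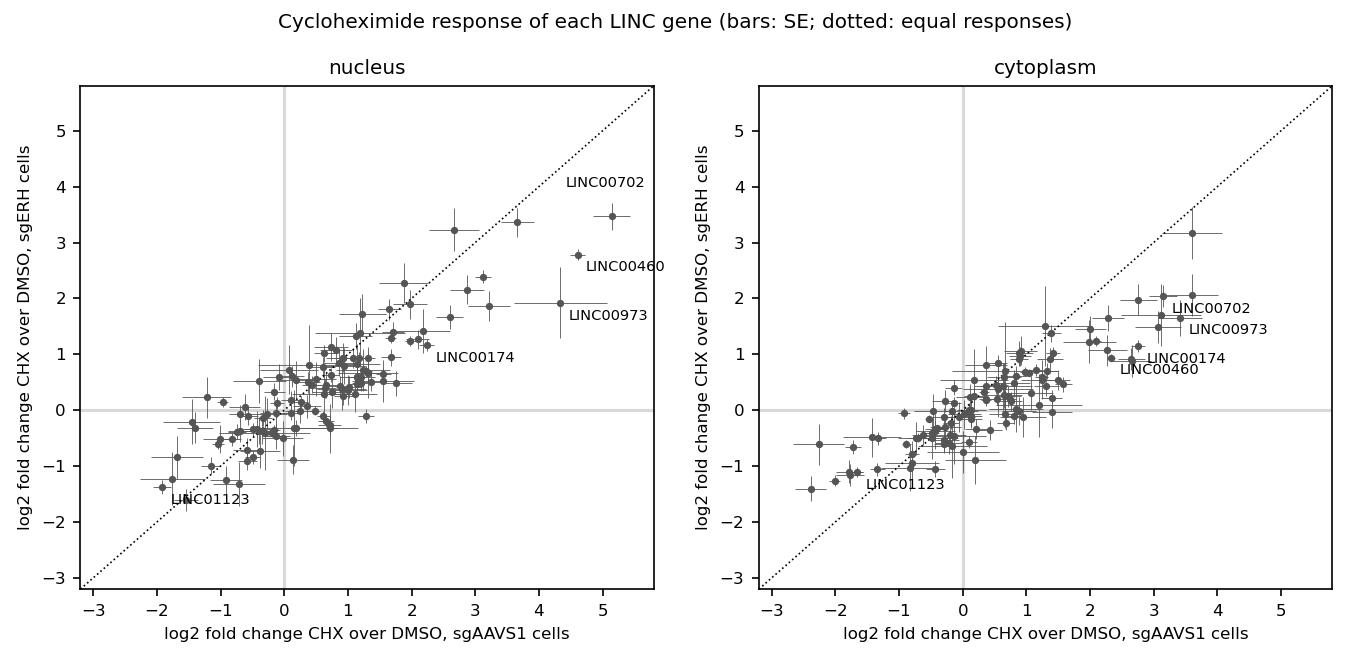
Log2 fold change of each LINC gene with CHX over DMSO in sgERH cells (vertical axis) and in sgAAVS1 cells (horizontal axis), for nucleus and cytoplasm; bars are standard errors and the dotted line marks equal responses. LINC00460 lies at 2.78 in sgERH and 4.61 in sgAAVS1 nuclei, below the line; LINC00941 is not drawn.

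Promoter sequences of the members were searched for 3 words on both strands, those of AP-1 (TGANTCA), of the cAMP response element (TGACGTCA) and of the TATA box (TATAAA), none of which contains another. RefSeq promoters on GRCh38.p14, from 250 bases before to 50 bases after the start, were held for 82 of the 119 members. The AP-1 word occurred in 10 of these (12.2%), against 7.76% of 27305 promoters of all genes. It occurred in 7 of 19 members with a promoter that rose in sgAAVS1 cytoplasm (36.8%), in 0 of 8 that fell and in 3 of 55 not called (5.45%). Over all tested genes the shares were 8.67% of 1234 that rose, 3.37% of 682 that fell and 4.27% of 9062 not called. In sgAAVS1 nuclei it occurred in 7 of 28 members that rose (25%), against 8.87% of all genes that rose, in 0 of 9 members that fell and in 3 of 44 not called (6.82%). The response element word, held by 1.98% of all promoters, occurred in 1 of 19 members that rose in sgAAVS1 cytoplasm, in 0 of 8 that fell and in 3 of 55 not called, and in sgAAVS1 nuclei in 2 of 28, 0 of 9 and 2 of 44. The TATA word, held by 11.95% of all promoters, occurred in 1 of 19, 0 of 8 and 9 of 55 members in cytoplasm, and in 3 of 28, 1 of 9 and 6 of 44 in nuclei. The AP-1 word is shown further because it had the highest share among the members that rose, a choice made after the shares were seen. Members that rose can have passed the count minimum through their CHX libraries, so these shares carry that limit too. The members with the word that rose in both fractions were LINC00339, LINC00460, LINC00702, LINC00973, LINC01001, LINC01002 and LINC01812, of which LINC01001 and LINC01002 share 88.9% and 95.8% of their words with other genes. A match is a description of the letters and not of a bound site. For LINC00973 and LINC01001 the RefSeq start lies 66492 and 7145 bases from the nearest start in the annotation used for counting, so their windows may not hold the promoter in use. Promoters of 3 of these genes are shown because they carry the AP-1 word, start within 1 base of an annotated transcript start and share no words with other genes. That transcript is the nearest of any of the gene and need not be the one in use. The AP-1 word is in capitals. LINC00460 (chr13:106376314-106376613, plus strand) holds it centred 41 and 14 bases before the start, LINC00702 (chr10:4243863-4244162, minus strand) 17 bases after it and LINC01812 (chr2:67825513-67825812, minus strand) 137 bases before it.
LINC00460: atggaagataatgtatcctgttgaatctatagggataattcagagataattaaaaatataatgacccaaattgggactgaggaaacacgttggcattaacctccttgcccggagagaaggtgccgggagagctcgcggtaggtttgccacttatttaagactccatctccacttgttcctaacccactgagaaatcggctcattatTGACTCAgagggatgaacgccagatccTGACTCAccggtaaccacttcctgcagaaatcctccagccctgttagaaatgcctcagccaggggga
LINC00702: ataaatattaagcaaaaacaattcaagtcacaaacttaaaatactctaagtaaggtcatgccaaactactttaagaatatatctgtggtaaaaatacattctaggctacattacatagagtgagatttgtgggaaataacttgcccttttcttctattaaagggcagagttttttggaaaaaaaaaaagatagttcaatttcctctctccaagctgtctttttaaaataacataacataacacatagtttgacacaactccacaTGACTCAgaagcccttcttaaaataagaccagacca
LINC01812: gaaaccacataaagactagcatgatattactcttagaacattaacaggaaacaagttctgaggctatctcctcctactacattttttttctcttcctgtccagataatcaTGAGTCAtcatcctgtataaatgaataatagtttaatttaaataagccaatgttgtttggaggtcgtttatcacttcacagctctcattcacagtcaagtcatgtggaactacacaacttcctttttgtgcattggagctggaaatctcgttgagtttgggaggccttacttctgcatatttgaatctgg

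LINC01812, the last of these, stood at 13.9, 11.5 and 11.5 CPM with CHX, against 1.93, 2.01 and 2.14 CPM with DMSO in sgAAVS1 nuclei (log2 fold change 2.60, called by edgeR). In sgERH nuclei it stood at 5.61, 4.95 and 5.82 CPM with CHX, against 1.17, 2.15 and 1.79 CPM with DMSO. Its CHX levels were thus lower in sgERH than in sgAAVS1 cells, while its DMSO levels overlapped.

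The sgERH effect with CHX was then set against that with DMSO. In cytoplasm the effect was lower with CHX for 13 of 118 members and higher for 2 (2.61% and 1.02% of all genes, 3.63% in either direction), with a median difference of −0.22 against 0.03. In nuclei it was lower for 6 and higher for 1 (2.33% and 1.29%, 3.62% in either direction), with a median of −0.22 against −0.02. The nuclear count of 7 was 2 with transcript-length offsets and 11 with DESeq2. LINC00460 had a difference of −1.83 ± 0.15 in nuclei (SE; edgeR adjusted p = 8.62e-07), LINC00702 of −1.67 ± 0.38 and LINC00205 of −1.38 ± 0.17. LINC00205 stood at 36.8, 25.9 and 36 CPM in sgERH, against 57.5, 54.4 and 53.3 CPM in sgAAVS1 nuclei with CHX, and at 31.4, 34.1 and 40.2 CPM in sgERH, against 21.7, 22.9 and 23.5 CPM in sgAAVS1 nuclei with DMSO. The order of the guides was therefore reversed between treatments. LINC01358 was the 1 member whose sgERH effect in nuclei was higher with CHX (difference 1.12 ± 0.13). It fell in sgERH nuclei with DMSO, and with CHX the groups overlapped. In cytoplasm LINC01347 (ENSG00000291217) and LINC00973 had differences of −1.77 ± 0.41 and −1.76 ± 0.47, and LINC00941, uncertain as above, of −9.36. LINC01347 shares 79.4% of its words with other genes. LINC02977 had the opposite sign (1.06 ± 0.18), with 4.22, 3.86 and 3.84 CPM in sgERH, against 1.71, 1.38 and 1.67 CPM in sgAAVS1 cytoplasm with CHX, and 6.61, 6.41 and 5.86 CPM in sgERH, against 4.99, 5.24 and 5.56 CPM in sgAAVS1 cytoplasm with DMSO. LINC00852 also had a higher effect with CHX (1.65 ± 0.54, adjusted p = 0.0341), a call that was lost in 8 of 12 fits that left out 1 library.

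Intron retention could be read for LINC02210 alone, since the intron tables hold no other member. In nuclei with DMSO 0 of its 6 tested introns were called (3.77% of all tested introns were), 1 had an unadjusted p under 0.05, and in cytoplasm 0 of 3 were called (1.81% of all) with 0 at an unadjusted p under 0.05. The introns at chr17:45630159-45630484 and chr17:45630159-45635300 had 0 spliced reads in every nuclear group, so the test could not call them. Apart from chr17:45630159-45636282, the other introns tested in nuclei averaged at most 5.33 spliced reads in any nuclear group. The absence of calls therefore says little about them. The intron at chr17:45630159-45636282 had an intron retention ratio of 0.234 in sgERH and 0.297 in sgAAVS1 nuclei, and of 0.0178 in sgERH and 0.0131 in sgAAVS1 cytoplasm. Neither difference passed the test (edgeR adjusted p = 0.571 and 0.594). The retention of this intron was thus lower in cytoplasm than in nuclei for both guides, as a description, and several of the 6 introns overlap one another.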

How the data were processed

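Poly(A)-enriched RNA of 24 libraries (8 groups of 3) was sequenced after fractionation of RKO-iCas9 cells. The authors deposited estimated counts and TPM per transcript from salmon, with effective transcript lengths, and per-intron tables from IRFinder with intron depth (a coverage signal), spliced and boundary read counts and an IR ratio (a fraction of 0 to 1 that compares intron depth with splicing). The study's methods give nf-core/rnaseq with STAR and salmon on an Ensembl GRCh38 annotation. The submitters' processing notes also list fastp 0.23.4 and bedtools 2.30.0.

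Estimated counts were summed per gene, rounded to whole numbers and tested with edgeR 4.0.16 (quasi-likelihood test, TMM scaling, Benjamini-Hochberg adjustment over all tested genes) under R 4.3.3. Each fraction was fitted with its 4 groups together, and nucleus against cytoplasm over the DMSO libraries. CPM are on the scale of the fit named, and nucleus-against-cytoplasm values are on the DMSO scale. A gene was called at an adjusted p of at most 0.05 and a log2 fold change of at least 1 in either direction. Introns were tested as depth relative to spliced reads with edgeR. DESeq2 1.42.0, RLE size factors, no low-count filter, transcript-length offsets, the replicate number as a block, a block by guide and number over both fractions and the omission of each library were the alternatives. Scripts were tested on simulated data.

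The rule took symbols from the intron tables, which name few non-coding genes, so symbols were matched by gene ID to the reference annotation, of which 62700 of 62754 genes had one. Genes without a match held 0.00976% of counts. Members and lists were chosen with earlier results of these data known. Genes were named by rank of fold change among called members (up to 6 in each direction for each sgERH comparison, 5 for CHX in sgAAVS1 cells and for place, 3 for differences, 2 for CHX in sgERH cells), with the 8 most abundant members and those at the count limit. LINC00339 and LINC01001, and overlapping or neighbouring genes, were named after their values were seen. Libraries held between 27849345 and 79450331 counts, and values are relative to each library because no spike-in was used.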

Additional observations from a re-analysis of the deposited data

Results flagged for a closer look

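By an edgeR test of the difference, the sgERH effect differed between CHX and DMSO for 15 members in cytoplasm and 7 in nuclei, and between nucleus and cytoplasm with DMSO for 15. The values given here are those of up to 3 members in each direction. Between CHX and DMSO in cytoplasm the log2 difference of the sgERH effect was 1.65 for LINC00852, 1.06 for LINC02977, −1.77 for LINC01347, −1.76 for LINC00973 and −9.36 for LINC00941. The LINC00941 value rests on libraries at 0 and on reads shared with an overlapping gene, and it ran from −9.99 to −1.24 when 1 library was left out.

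In nuclei the difference between CHX and DMSO was 1.12 for LINC01358, −1.83 for LINC00460, −1.67 for LINC00702 and −1.38 for LINC00205. For LINC00460 and LINC00205 the sgERH libraries lay below the sgAAVS1 libraries with CHX and above them with DMSO.

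Between nucleus and cytoplasm with DMSO the difference was 1.27 for LINC01311, −3.68 for LINC00342, −1.68 for LINC01355 and −1.48 for LINC02604. LINC00342 and LINC01355 were the 2 most nuclear members in sgAAVS1 cells, and both were higher in sgERH than in sgAAVS1 cytoplasm. Both readings use the same sgAAVS1 cytoplasm libraries with DMSO, so they are not independent.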

How the results depend on the processing

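Of 85 values of named genes, 72 kept their direction and call in every alternative. The number of members whose sgERH effect differed between CHX and DMSO in nuclei was 2 with transcript-length offsets and 11 with DESeq2, against 7, and the cause was not tested. Leaving out 1 library gave 38 to 45 called members for sgERH in cytoplasm with DMSO, 13 to 15 in nuclei with DMSO, 20 to 23 in cytoplasm with CHX and 21 to 25 in nuclei with CHX. For CHX it gave 41 to 46 in sgAAVS1 cytoplasm, 46 to 52 in sgAAVS1 nuclei, 21 to 26 in sgERH cytoplasm and 26 to 33 in sgERH nuclei. For nucleus against cytoplasm it gave 76 to 80 in sgAAVS1 and 74 to 78 in sgERH cells, and for the differences of effects 10 to 19, 6 to 10 and 13 to 18. The LINC00941 rise in sgERH cytoplasm with DMSO ran from 0.0 to 8.75 and was 0.0 without sgERH replicate 3. Over all single-library omissions 564 named values held, 23 lost their call and 1 changed direction.

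With length offsets 8 named values lost their call, among them LINC01358 in nuclei with DMSO (−0.94) and LINC01588 in nuclei with CHX (−0.83). RLE size factors moved the all-gene median of nucleus over cytoplasm to 0.158 in sgERH and 0.178 in sgAAVS1 cells, against 0.02 and 0.05. Over all introns, 2718 were called from boundary reads and 2121 to 2886 with 1 library left out in nuclei, against 4232, and 448 from boundary reads and 493 without sgERH replicate 3 in cytoplasm, against 774. No member's intron was called in any of these.

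Samples of different guides share replicate numbers, but same-numbered libraries deviated together only weakly (r from −0.016 to 0.193 between guides, over 0.1 in 4 of 12 pairs). With the replicate number as a block the called members were 43, 14, 22 and 22 for the sgERH comparisons in cytoplasm with DMSO, nuclei with DMSO, cytoplasm with CHX and nuclei with CHX. They were 41, 52, 27 and 27 for CHX in sgAAVS1 cytoplasm and nuclei and in sgERH cytoplasm and nuclei. The block gave 78 and 77 for nucleus against cytoplasm in sgAAVS1 and sgERH cells, 15, 9 and 15 for the differences of effects, and 0 introns of a member in either fraction. Nuclear and cytoplasmic libraries carry the same running numbers in the labels, which do not state that a number marks 1 culture (same-numbered fractions r from 0.002 to 0.316, over 0.1 in 4 of 12 pairs, others from −0.291 to 0.103). With guide and number as a block shared by both fractions, an alternative chosen after seeing the data, 78 and 75 members were called for nucleus against cytoplasm in sgAAVS1 and sgERH cells and 15 for the difference, and no named value changed its call.

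Scarce members rest on few counts, since 3 counts correspond to 0.0404 to 0.113 CPM.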
